A study of Mus musculus with 9 samples.

Results

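The 10 genes described here are markers of adipocytes and of marrow fat: Adipoq, Lep, Fabp4, Cidec, Pparg, Lpl, Retn, Car3, Lepr and C1qtnf9. They were chosen by gene symbol, as 10 of the 27179 genes in the count table of an RNA-seq study of mouse mandibles. Whole mandibles with their teeth came from 6-month-old male C57BL/6 mice, 5 of them wild type (WT) and 4 labelled FcγRIIB-/-. FcγRIIB is the inhibitory receptor for immunoglobulin G, and mice without it develop a lupus-like disease with bone loss. The question was which genes differ in the mandible between these genotypes. Each library was 1 mouse, and neither group carried a further allele or received a treatment that the labels name. The label stands for a deletion in all cells of the body, so no cell type was targeted, and the RNA of bone, marrow, teeth and adhering tissue was measured together. In such bulk RNA, fewer cells of a type and less RNA per cell cannot be told apart.

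The label of the second group was not borne out by its own gene. Fcgr2b was at 24.0 ± 8.28 CPM (mean ± SD, n = 5) in WT and 27.8 ± 2.90 CPM (n = 4) in the second group, where CPM are counts scaled to a common library size. The difference was 0.21 on the log2 scale and did not pass (edgeR quasi-likelihood test, Benjamini-Hochberg adjusted p = 0.442). A count for the whole gene cannot tell whether a deleted stretch is missing from its reads. The second group is therefore called the labelled knockout mice below. Total counts were 24158960 to 26787359 per library in WT and 21453880 to 28991631 in the labelled knockout mice. Of 16329 genes with enough counts to test, 3144 were lower (19.3%) and 2289 were higher (14.0%) in the labelled knockout mice at an adjusted p under 0.05. With scaling to total counts alone the split was 3781 lower and 1309 higher. Marker lists of neutrophils and erythroid cells were far lower in the labelled knockout mice, with 10 of 10 and 9 of 10 tested genes lower. Macrophage and sebaceous genes were lower in 4 of 9 and 3 of 5 tested, and salivary genes higher in 1 of 4. The tissue label held: Col1a1, the main collagen of bone, was at 31252 CPM in WT, and the tooth genes Dspp and Ambn were at 4690 and 6997 CPM. The summed list of 10 bone and tooth genes overlapped between groups, at 54631 to 90765 and 75196 to 102726 CPM, with 3 genes lower and 2 higher.

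White adipocytes store triglyceride in a single lipid droplet and secrete hormones such as adiponectin and leptin. Bone marrow holds adipocytes of its own, which arise from stromal cells that carry the leptin receptor and surround the marrow sinusoids. These stromal cells make the factors that hold blood stem cells in place, and part of them express adiponectin before they fill with lipid. Several genes used as fat markers are also known from other cells: Fabp4 from capillary endothelium, and Lpl and Car3 from skeletal muscle.

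Sequence just before the start of transcription was read for the members that results turn on and that RefSeq promoters (build GRCm38.p6) covered. Of the 10 members, 7 were matched, and Fabp4, Lpl and Car3 were not. The 3 windows shown belong to Adipoq and to Lepr, which were both lower, and to C1qtnf9, a relative of Adipoq in sequence that was higher. Each is the 250 bases upstream of the start, written 5′ to 3′ on the gene's strand, with the letters CCAAT in capitals wherever they occur on either strand (ATTGG on the strand shown). The windows are chr16:23146286-23146535 (+) for Adipoq, chr4:101717157-101717406 (+) for the first listed promoter start of Lepr and chr14:60767884-60768133 (+) for C1qtnf9. The Lepr window lies inside the annotated gene, which begins at chr4:101717137.
Adipoq: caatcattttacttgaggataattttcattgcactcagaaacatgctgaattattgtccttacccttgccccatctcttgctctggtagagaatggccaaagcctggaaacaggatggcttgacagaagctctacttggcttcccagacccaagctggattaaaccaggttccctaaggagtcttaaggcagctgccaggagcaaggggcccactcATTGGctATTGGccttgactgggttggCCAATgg
Lepr: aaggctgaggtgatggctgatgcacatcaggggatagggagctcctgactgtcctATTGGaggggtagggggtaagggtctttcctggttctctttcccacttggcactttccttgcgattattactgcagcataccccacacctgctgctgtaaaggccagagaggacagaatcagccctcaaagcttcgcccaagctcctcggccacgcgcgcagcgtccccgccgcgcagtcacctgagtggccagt
C1qtnf9: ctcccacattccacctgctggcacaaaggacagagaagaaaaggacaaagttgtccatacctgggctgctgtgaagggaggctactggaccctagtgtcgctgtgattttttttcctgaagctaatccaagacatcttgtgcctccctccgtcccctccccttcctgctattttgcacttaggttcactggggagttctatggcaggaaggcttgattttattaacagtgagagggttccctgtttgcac

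The CCAAT letters were found 3 times in the Adipoq window, with their leftmost base at -34, -27 and -7 from the start. The first listed Lepr start had 1 copy, at -195. A second Lepr start, with the window chr4:101717656-101717905 (+) that is not shown, had none. The C1qtnf9 window had none. Of 32851 promoter windows of the same length, 33.8% held CCAAT on either strand. AGGTCA, the core of many nuclear receptor sites, and TATAAA, the TATA box, were in 14.0% and 12.4% of the windows and in none of the windows shown or of the second Lepr start. A match is a description of letters, and its absence says only that these letters are not in the window.

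Of the 10 members, 8 passed the filter on low counts and 2, Lep and Retn, did not. Adipoq and Lepr were lower in the labelled knockout mice, and Fabp4, Lpl and C1qtnf9 were higher. Pparg, Car3 and Cidec did not pass the test. The 2 members lower and 3 higher of 8 tested stand beside the 19.3% and 14.0% of all tested genes. The same 2 and 3 members had groups that did not overlap, beside 17.5% of all tested genes without overlap and lower and 12.1% without overlap and higher. The 8 members had a median log2 fold change of 0.11, beside 0.01 for all tested genes.

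**Figure D1:**
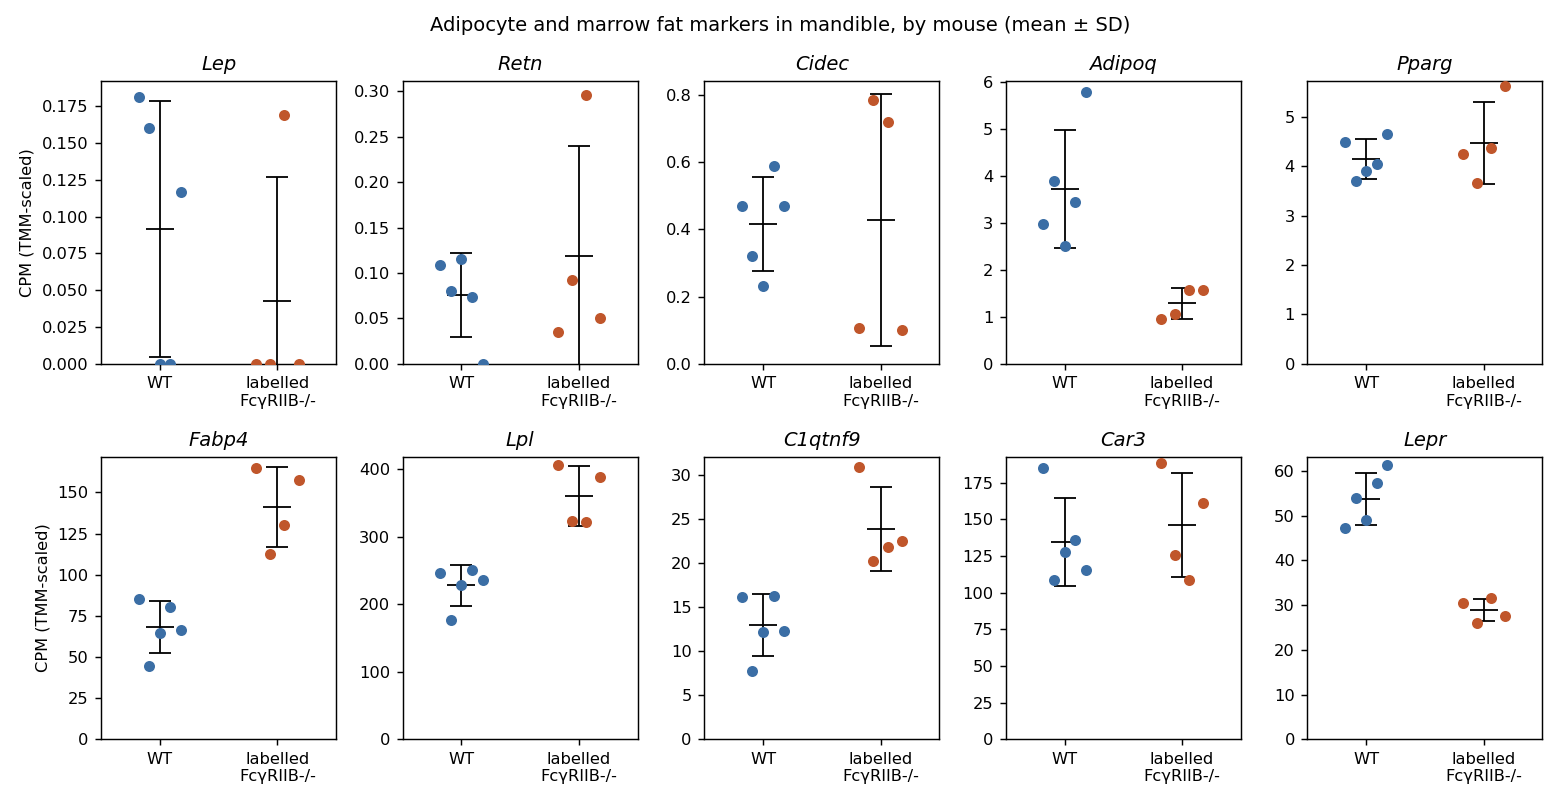
CPM of the 10 members in each mouse, with 1 panel per gene and a vertical axis from 0. Points are mice, and the black marks are the mean ± SD of 5 WT and 4 labelled FcγRIIB-/- mice. The groups are apart for Adipoq, Fabp4, Lpl, C1qtnf9 and Lepr and overlap for the other members, and Lep, Retn and Cidec lie under 1 CPM in every mouse.

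The genes that best define a fat cell were close to absent. Lep encodes leptin, the satiety hormone of fat, and had 5, 4, 0, 0 and 3 counts in WT mice 1 to 5 and 0, 0, 4 and 0 in labelled knockout mice 1 to 4. Retn, which encodes the adipocyte hormone resistin, had 3, 2, 3, 2 and 0 counts in WT and 1, 2, 7 and 1 in the labelled knockout mice. Lep therefore summed to 16 counts and Retn to 21 over all 9 libraries, most libraries being at or near the floor of 3 counts. That floor corresponds to 0.105 to 0.152 CPM per library, so no difference in either gene was detectable at this depth. Cidec, a lipid droplet protein that lets droplets fuse, had 13, 8, 6, 16 and 12 counts in WT and 3, 17, 17 and 2 in the labelled knockout mice. The labelled knockout mice fell on both sides of the WT range, with mice 2 and 3 above it and mice 1 and 4 below it. Cidec was at 0.416 ± 0.140 CPM in WT and 0.428 ± 0.376 CPM in the labelled knockout mice, a log2 fold change of 0.02 with an interval of -1.11 to 1.16 (1.96 SE on each side).

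As a check of the name given to these genes, 6 markers that define fat cells were read together: Adipoq, Lep, Cidec, Retn, Plin1 and Cfd. Their summed level was 4.93 to 8.74 CPM in WT and 2.38 to 7.54 CPM in the labelled knockout mice, and 4 of the 6 were under 1 CPM in every library. Plin1, the coat protein of adipocyte lipid droplets, was at 0.418 ± 0.110 CPM in WT and 0.0823 ± 0.0401 CPM in the labelled knockout mice and was not tested because of low counts. Cfd, the secreted protease adipsin, was at 1.45 ± 0.493 and 2.23 ± 1.73 CPM (log2 fold change 0.62, adjusted p = 0.328, edgeR). Fabp4, Lpl and Car3, which other cells express too, were at far higher levels.

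Per length of mRNA, the WT order of mean CPM per kilobase was Car3 (80.3), Fabp4 (76.1), Lpl (55.4), Lepr (9.70), C1qtnf9 (6.79), Adipoq (2.88), Pparg (1.95), Cidec (0.242), Retn (0.0664) and Lep (0.0282). The ranges of neighbouring genes over the 5 mice overlapped except between Lpl and Lepr, between Pparg and Cidec and between Cidec and Retn. In the labelled knockout mice Fabp4 stood first at 158 CPM per kilobase, above Lpl at 87.6 and Car3 at 87.0, and its range lay clear of both. C1qtnf9, at 12.5, stood above Lepr at 5.22 there, and Pparg, at 2.10, above Adipoq at 0.996, each without overlap.

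Adipoq encodes adiponectin, the hormone that raises insulin sensitivity, and lies at chr16:23146536-23157968 (GRCm38). It had 82, 97, 65, 94 and 148 counts in WT mice 1 to 5 and 27, 23, 37 and 31 counts in labelled knockout mice 1 to 4. Each labelled knockout mouse was under each WT mouse, and WT mouse 5 stood highest. The mean was 3.72 ± 1.26 CPM in WT (n = 5) and 1.29 ± 0.330 CPM in the labelled knockout mice (n = 4), or 2.90-fold lower. The log2 fold change was -1.53 (SE 0.28, adjusted p = 0.00307, edgeR), the largest in size of the 8 tested members. Without WT mouse 5 it was -1.30.

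Lepr encodes the leptin receptor, which in marrow marks the stromal cells described above, and lies at chr4:101717137-101815352. Its level was 47.2, 54.0, 49.0, 57.3 and 61.4 CPM in WT mice 1 to 5 and 30.4, 26.1, 31.6 and 27.7 CPM in the labelled knockout mice. The groups were far apart against their spread, with means of 53.8 ± 5.85 and 28.9 ± 2.54 CPM, and Lepr was 1.86-fold lower. The log2 fold change was -0.89 (SE 0.09, adjusted p = 0.00023, edgeR), the smallest adjusted p among the members. All isoforms of the receptor are counted as 1 gene.

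Genes of leptin receptor positive marrow stroma were read beside these members. Of 12 tested, 6 were lower (50%) and 1 was higher (8.3%), beside 19.3% and 14.0% of all tested genes, with a median log2 fold change of -0.42. Kitl was the higher one (log2 fold change 0.25, adjusted p = 0.0136, edgeR). Among those not past the test, log2 fold changes ran from -0.68 (Il7) to -0.02 (Foxc1), with Ebf3 at -0.07. Among the lower ones were Cxcl12, the chemokine that retains blood stem cells (log2 fold change -0.73, adjusted p = 0.0038, edgeR), and Gas6, a ligand of TAM receptors (-0.45, adjusted p = 0.0056). Pdgfrb, a receptor of mesenchymal and mural cells, was at -0.14 and did not pass (adjusted p = 0.137). The summed level of the list was 1277 to 1595 CPM in WT and 977 to 1105 CPM in the labelled knockout mice, without overlap. The largest changes in the list were those of Grem1, a BMP antagonist (-1.32, adjusted p = 0.0028, edgeR), and Angpt1, a ligand of the endothelial receptor Tie2 (-1.11, adjusted p = 0.0008), and the adhesion molecule Vcam1 was lower too (-0.72).

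Adipoq and Lepr were also set against that list within each library, a comparison added after the values were seen. Adipoq, as a ratio to the summed stromal list times 1000, was 1.96 to 4.23 in WT and 0.856 to 1.61 in the labelled knockout mice. The difference in mean log2 ratio was -1.10 (two-sided exact permutation test over mice, p = 0.00794, the smallest that 126 splits allow, 0.0179 after adjustment over 9 such ratios). Lepr was at a ratio of 33.8 to 45.0 in WT and 25.3 to 30.7 in the labelled knockout mice, a difference of -0.49 on the log2 scale (exact permutation p = 0.00794, adjusted 0.0179). Neither ratio overlapped between groups. Adipoq by itself was already without overlap at a log2 fold change of -1.53, so its ratio largely repeats that difference. The sum is mostly that of the abundant genes Cxcl12, Gas6, Pdgfrb and Pdgfra, at 344, 269, 252 and 244 CPM in WT. All of these had smaller log2 fold changes than Lepr: Cxcl12 (-0.73), Gas6 (-0.45) and Pdgfra (-0.38), all lower, and Pdgfrb (-0.14, not past the test). The Lepr ratio is therefore set against genes that changed less. Grem1 and Angpt1, which add little to the sum, had larger log2 fold changes than Lepr, so the ratio does not place Lepr below every gene of the list. WT mouse 5, highest for Adipoq and Lepr, was also highest for the neutrophil and erythroid lists. The neutrophil list was at 1130 to 3404 CPM in WT and 139 to 419 CPM in the labelled knockout mice. The erythroid list was at 471 to 751 against 73.4 to 117 CPM. WT mouse 5 was highest too for the keratinized epithelium list (7733 CPM) and the sebaceous list (113 CPM). The stromal list was highest in WT mouse 2 (1595 CPM). The part of marrow blood cells or of these other tissues in these results was not tested.

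**Figure D2:**
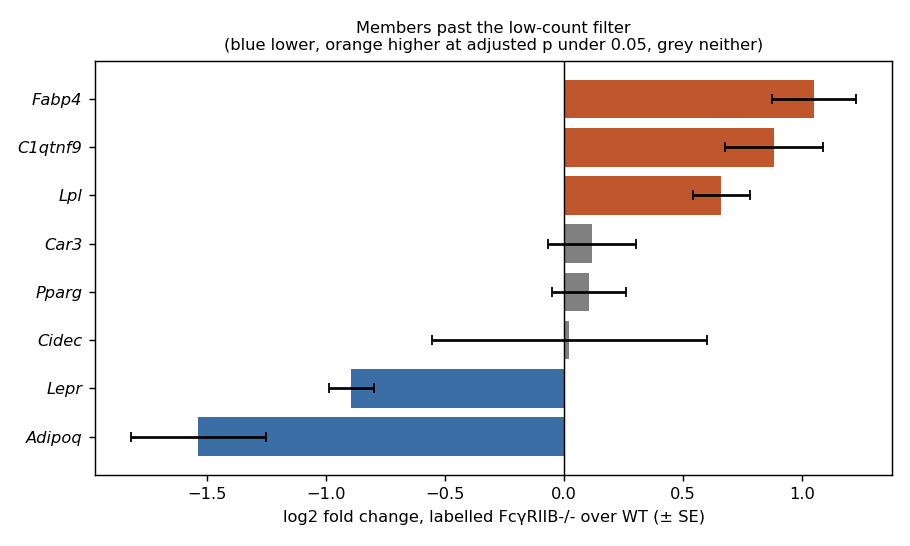
Log2 fold change of the 8 tested members, labelled FcγRIIB-/- over WT, with bars from 0 and error bars of 1 SE from the edgeR fit. Adipoq (-1.53) and Lepr (-0.89) lie to the left of 0, Fabp4 (1.05), C1qtnf9 (0.88) and Lpl (0.66) to the right, and Cidec has the widest error.

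The genes whose profile over the 9 libraries was most like those of Adipoq and Lepr were named by the smallest root mean square difference of centred log2 CPM. For Adipoq, compared with 12750 genes, these were Mmrn1 (0.20), Igsf6, Sla, Plek and Rasgrp1 (0.22). For Lepr, compared with 12749 genes, they were Vwf (0.11), Fat4, Nrp2, Lbr and Hmgb2 (0.12).

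Fabp4, Lpl and C1qtnf9 went the other way. Fabp4 encodes the fatty acid chaperone aP2 and lies at chr3:10204342-10208616. It was at 85.0, 44.6, 64.6, 80.3 and 66.5 CPM in WT mice 1 to 5 and at 165, 112, 130 and 158 CPM in labelled knockout mice 1 to 4. WT mouse 2 was lowest and labelled knockout mouse 1 highest, and the groups did not overlap. Fabp4 was 2.07-fold higher, at 141 ± 24.3 CPM (n = 4) against 68.2 ± 15.8 CPM (n = 5), with a log2 fold change of 1.05 (SE 0.18, adjusted p = 0.00200, edgeR).

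Lpl encodes lipoprotein lipase, which frees fatty acids from circulating lipoproteins at the vessel wall, and lies at chr8:68880555-68906932. It was at 247, 177, 229, 251 and 237 CPM in WT and at 407, 324, 322 and 389 CPM in the labelled knockout mice. The same mice were lowest and highest as for Fabp4. Lpl was 1.58-fold higher (log2 fold change 0.66, SE 0.12, adjusted p = 0.00267, edgeR), with group means of 228 ± 29.9 and 360 ± 44.0 CPM.

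C1qtnf9 encodes CTRP9, a secreted relative of adiponectin, and lies at chr14:60768134-60780869. It was at 16.1, 7.70, 12.2, 16.3 and 12.3 CPM in WT and at 30.9, 20.2, 21.8 and 22.5 CPM in the labelled knockout mice. Here too WT mouse 2 was lowest and labelled knockout mouse 1 highest, and the groups did not overlap. The mean was 12.9 ± 3.52 CPM in WT and 23.8 ± 4.79 CPM in the labelled knockout mice, 1.84-fold higher (log2 fold change 0.88, SE 0.21, adjusted p = 0.00884, edgeR). Of the 8 other tested genes of the C1q and TNF related family, including Adipoq, none was higher and 4 were lower, among them C1qtnf1 (-0.70), C1qtnf3 (-0.81) and C1qtnf6 (-0.28). The antisense gene Mipepos overlaps the C1qtnf9 locus, with 0 bases of shared exon.

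Pparg and Car3 overlapped between groups. Pparg, the nuclear receptor that drives adipocyte differentiation, had 124, 92, 101, 110 and 119 counts in WT and 121, 79, 103 and 111 counts in the labelled knockout mice. These are nearly equal levels, 4.15 ± 0.403 and 4.47 ± 0.831 CPM. The log2 fold change was 0.10 (adjusted p = 0.637, edgeR), with an interval of -0.20 to 0.41. Its relatives Ppara (-0.05) and Ppard (-0.08) did not pass either.

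Car3, the carbonic anhydrase of muscle and fat cytoplasm, was at 185, 109, 128, 136 and 116 CPM in WT and at 189, 126, 109 and 161 CPM in the labelled knockout mice. The lowest and the highest mouse were again WT mouse 2 and labelled knockout mouse 1, but the groups shared most of their range. The log2 fold change was 0.12 (adjusted p = 0.654, edgeR), with an interval of -0.24 to 0.48. Among the 13 other carbonic anhydrases tested, Car1 (-4.54), the erythrocyte form, and Car2 (-1.25), the form of osteoclasts and erythrocytes, were lower, while Car4 (1.87), a membrane-bound form of capillaries, Car14 (1.06) and Car12 (0.43) were higher. The genes most like Car3 over the 9 libraries were Cand2 (0.12), Slc41a3, Ptp4a3, Zfat and Ipo13 (0.14) among 12749 compared.

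Markers of skeletal muscle moved with these members. Of 18 muscle genes tested, 9 were higher (50%, beside 14.0% of all tested genes) and none lower, with a median log2 fold change of 0.81. The summed muscle list ranged from 10147 to 23661 CPM in WT and from 23783 to 41798 CPM in the labelled knockout mice, so the groups were close but did not overlap. WT mouse 2 was lowest and labelled knockout mouse 1 highest, and all 9 mice stood in the same order for the muscle list as for Fabp4. Of its 3 most abundant genes, Tnnt3, the fast troponin T, was higher (log2 fold change 1.14, adjusted p = 0.0063, edgeR). Acta1, skeletal actin (0.80), and Myh1, a fast myosin (0.64), had adjusted p of 0.0510 and 0.0660 in edgeR and passed in DESeq2, with adjusted p of 0.0315 and 0.0158. The largest change among those past the test was that of Tnni2, the fast troponin I (1.37, adjusted p = 0.0024, edgeR).

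Each of these members was then divided by the muscle list sum of its library and multiplied by 1000, again a comparison added after the values were seen. The Fabp4 ratio was 3.27 to 4.39 in WT and 3.94 to 5.31 in the labelled knockout mice, a log2 difference of 0.25 (two-sided exact permutation p = 0.0794, adjusted 0.102 over 9 ratios). The C1qtnf9 ratio was 0.607 to 0.779 and 0.594 to 0.888, a log2 difference of 0.09 (exact permutation p = 0.532, adjusted 0.532). The Lpl ratio was 10.4 to 17.4 and 9.74 to 13.6, a log2 difference of -0.16 (exact permutation p = 0.429, adjusted 0.482). Relative to the muscle list, then, the ranges of all 3 genes overlapped and none passed the test. The muscle sum was itself higher without overlap, so dividing by it lessens the difference of any gene that was higher. These ratios therefore do not show which cells the RNA of the 3 genes came from, and that was not tested. Car3 did not overlap on this scale, at 5.70 to 10.7 in WT and 4.26 to 5.30 in the labelled knockout mice (log2 difference -0.71, exact permutation p = 0.0159, adjusted 0.0238). By itself Car3 did not pass (log2 fold change 0.12), while the muscle list sum was without overlap. This ratio therefore mostly carries the change of the list and is no separate result on Car3.

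**Figure D3:**
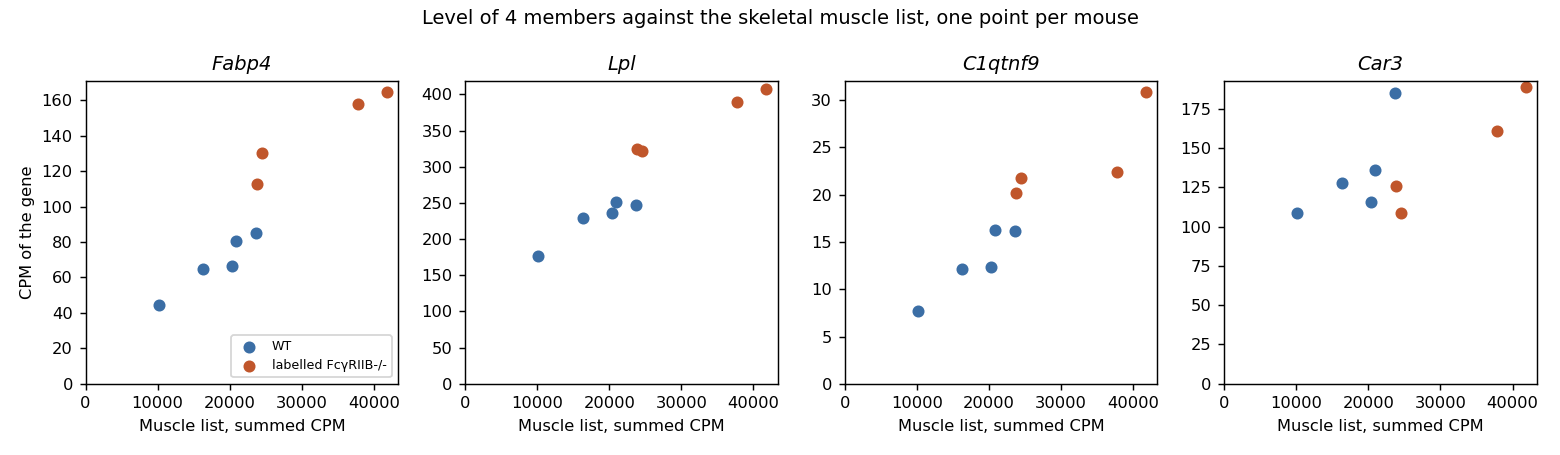
CPM of Fabp4, Lpl, C1qtnf9 and Car3 (vertical axes from 0) against the summed CPM of 18 skeletal muscle genes (horizontal axes) in each of 9 mice. WT mouse 2 is at the lower left and labelled FcγRIIB-/- mouse 1 at the upper right of every panel.

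Endothelial markers moved less than the muscle markers. Of 12 tested, 4 were higher (33.3%, beside 14.0% of all tested genes) and none lower, with a median log2 fold change of 0.17. The sum of the list was 689 to 787 CPM in WT and 784 to 888 CPM in the labelled knockout mice and overlapped. The higher ones were Ramp2 (log2 fold change 0.63), Egfl7 (0.51), Esam (0.50) and Robo4 (0.43). Their adjusted p values were 0.0012, 0.0058, 0.0024 and 0.0033 (edgeR), each without overlap between groups. Pecam1, a junction protein of all endothelium, was at 0.17 and did not pass (adjusted p = 0.168, edgeR). Relative to the endothelial list, Fabp4 was higher by 0.87 on the log2 scale (exact permutation p = 0.00794), Lpl by 0.46 (exact permutation p = 0.00794) and C1qtnf9 by 0.71 (exact permutation p = 0.0159), with adjusted values of 0.0179, 0.0179 and 0.0238. All 3 were without overlap on that scale. As the list sum itself moved little, these ratios largely repeat the differences of the 3 genes given above.

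**Figure D4:**
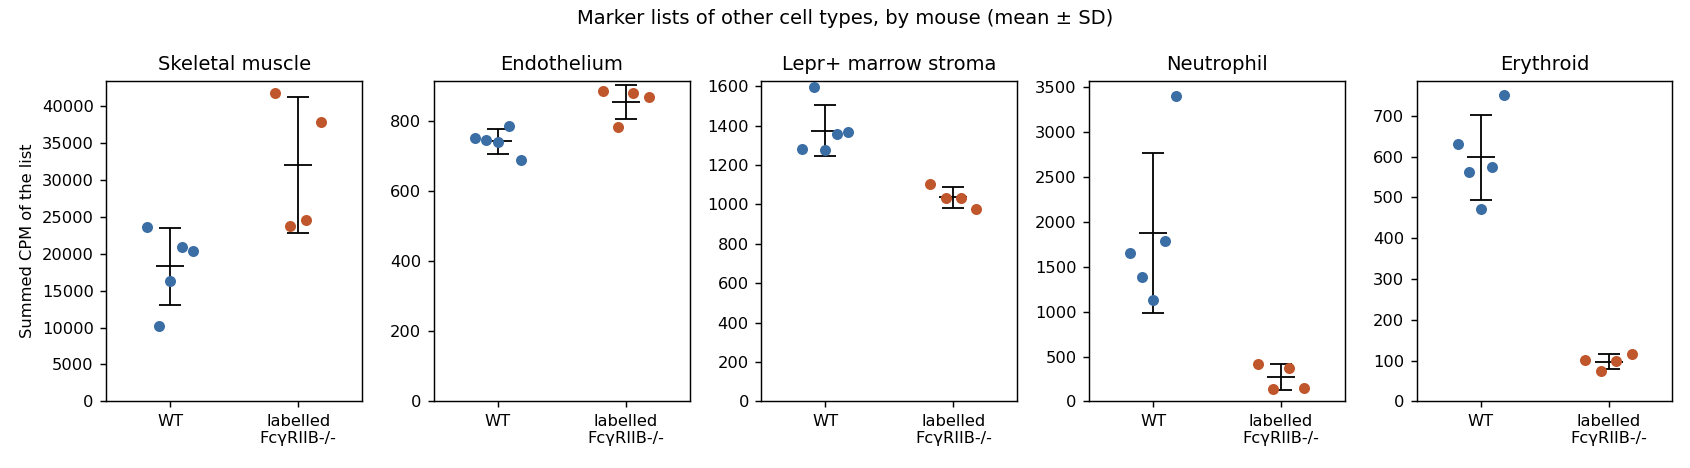
Summed CPM of 5 marker lists in each mouse, with vertical axes from 0 and the mean ± SD of 5 WT and 4 labelled FcγRIIB-/- mice. The muscle list is higher in the labelled FcγRIIB-/- mice, the stromal, neutrophil and erythroid lists are lower, and the endothelial list overlaps.

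Beyond the members, 73 further genes of adipocyte biology were read in 7 lists by role. Of 68 tested, 10 were lower (14.7%) and 16 higher (23.5%), beside 19.3% and 14.0% of all tested genes, and 42 did not pass. With scaling to total counts alone they were 12 lower and 12 higher, and with the DESeq2 test 10 lower and 19 higher. Their median log2 fold change was -0.01.

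The list for lipid and glucose uptake had 5 of 8 tested genes higher (62.5%, beside 14.0% of all tested genes) and none lower, with a median log2 fold change of 0.52. Gpihbp1, which carries lipoprotein lipase across the capillary wall, rose from 6.49 ± 1.20 to 13.3 ± 0.870 CPM (log2 fold change 1.04, SE 0.14, adjusted p = 0.0008, edgeR). Slc2a4, the insulin-responsive glucose transporter of muscle and fat, was at 0.75, and Angptl4, an inhibitor of lipoprotein lipase, at 0.67, both higher. The summed uptake list was lowest in WT mouse 2 (394 CPM) and highest in labelled knockout mouse 1 (699 CPM). These mice were also lowest and highest for the muscle list, at 10147 and 41798 CPM. The order between them differed: labelled knockout mice 2 and 4 were at 628 and 600 CPM for uptake but at 23783 and 37794 CPM for muscle. Gpihbp1 was highest in labelled knockout mouse 4 (14.4 CPM). Angptl4 was highest in labelled knockout mouse 2 (52.8 CPM) and at 22.8 CPM in mouse 4. Slc2a4 ran from 48.4 CPM in WT mouse 2 to 190 CPM in labelled knockout mouse 1. The uptake genes were not set against the muscle list. Lpl itself was at -0.16 on the log2 scale relative to that list, with the limit given above.

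In the lipid synthesis list 5 of 14 tested genes were lower (35.7%) and 3 higher (21.4%), beside 19.3% and 14.0% of all tested genes. The lower ones included Gpam (log2 fold change -1.14, SE 0.19, adjusted p = 0.0020, edgeR), the first enzyme of glycerolipid synthesis. Dgat2 (-0.73), which makes triglyceride, and Fasn (-0.52), fatty acid synthase, were also lower. Gpd1 (0.78), which makes glycerol phosphate, Thrsp (0.75), a regulator of lipogenesis, and Lpin1 (0.64), the phosphatidate phosphatase, were higher. Among 9 tested lipid droplet and lipolysis genes 3 were higher (33.3%, beside 14.0% of all tested genes) and none lower. They were Aqp7 (1.29), the glycerol channel, and the lipases Pnpla2 (0.51) and Lipe (0.28).

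Of 16 tested transcription factors of adipocytes, 3 were lower (18.8%) and 4 higher (25%), beside 19.3% and 14.0% of all tested genes. The share lower was thus near that of all tested genes. Ebf2 (-1.11) and Ebf1 (-0.51), early factors of the adipocyte and marrow stromal lineages, and Srebf1 (-0.29), of lipogenesis, were lower. Mlxipl (1.03), the carbohydrate response factor, Cebpb (0.63), an early factor of adipogenesis, and Nr1h3 (0.60), an oxysterol receptor, were higher. None of 8 tested secreted proteins passed the test, in edgeR at an adjusted p under 0.05, and their median log2 fold change was -0.02. In DESeq2 Retnla passed (log2 fold change 0.70, adjusted p = 0.0389).

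The adiponectin and leptin receptor list had 2 of 10 tested genes lower (20%) and none higher, beside 19.3% and 14.0% of all tested genes. The lower ones were Jak2 (-0.26), the kinase on the leptin receptor, and Ptpn1 (-0.30), a phosphatase that opposes it. Among the other genes of the list, Leprot (-0.11), Stat3 (-0.14), Socs3 (0.19) and Sh2b1 (0.13) did not pass. The adiponectin receptors Adipor1 (-0.01, adjusted p = 0.947) and Adipor2 (-0.09, adjusted p = 0.397) did not pass. In the brown fat list Ucp1, the defining thermogenic protein, was too low to test, at 0.0616 CPM in WT and 0.0330 CPM in the labelled knockout mice. Cox7a1, a cytochrome oxidase subunit of brown fat and muscle, was the 1 of 4 tested that was higher (0.99, adjusted p = 0.0032, edgeR).

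Relatives of 2 other members were read in the same fit. Fabp3, the muscle and heart form, was higher (log2 fold change 1.04, adjusted p = 0.0033, edgeR), from 30.1 to 61.6 CPM. Fabp5, the epidermal form, was lower (-2.12), from 275 ± 143 to 63.2 ± 7.92 CPM, and Fabp6, the ileal form, was lower (-1.68) at 1.03 CPM or less on average. In the list of keratinized epithelium, 8 of 10 genes were lower, as Fabp5 was. Krt5, a keratin of its basal layer, was higher (0.39, adjusted p = 0.0356, edgeR), and Krt14, its partner, was at 0.24 and did not pass. The sums of the list overlapped (3283 to 7733 CPM in WT, 4301 to 5270 CPM in the labelled knockout mice), and the part of that tissue was not tested. Of the resistin family, Retnlg, a neutrophil form, was lower (-3.13). Retnla did not pass in edgeR (0.68, adjusted p = 0.0737) and passed in DESeq2 (adjusted p = 0.0389).

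**Figure D5:**
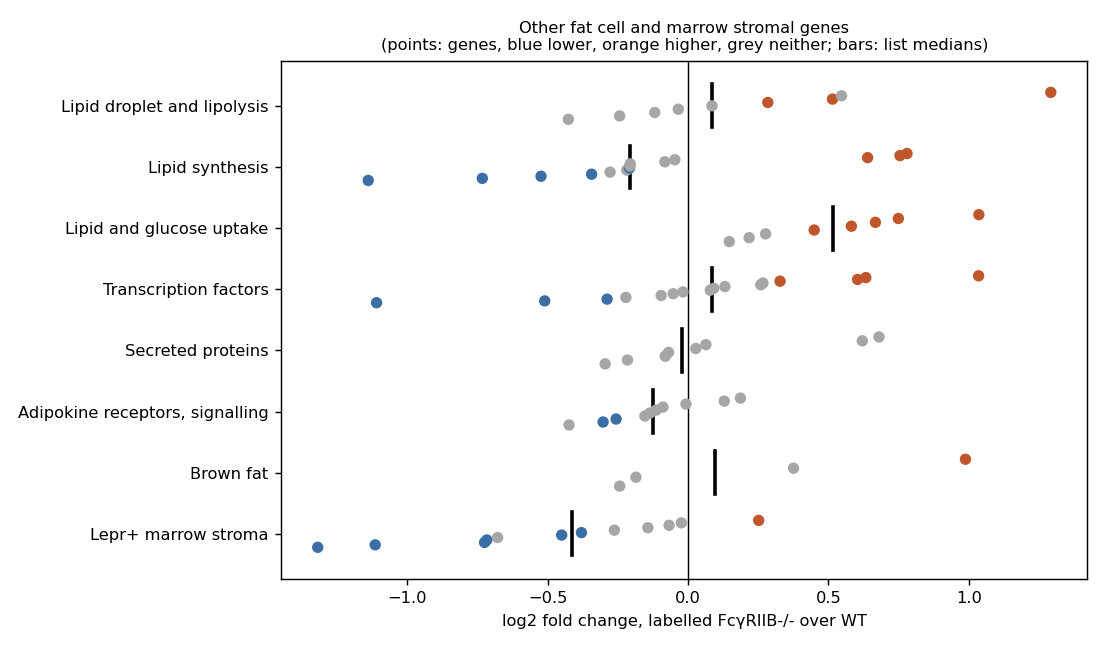
Log2 fold change, labelled FcγRIIB-/- over WT, of each tested gene (points) in 7 lists of adipocyte genes and in the list of leptin receptor positive marrow stroma, with the list median as a vertical black bar. The uptake list lies to the right of 0 (median 0.52), the stromal list mostly to the left (median -0.42), and the other lists spread to both sides.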

How the data were processed

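The authors deposited raw read counts per gene, with gene symbols and identifiers. Per the labels and the study's methods, poly(A) libraries from a directional kit were sequenced as 75 bp single reads, trimmed with Trim Galore, aligned to mm10 with HISAT (02.1.0) and counted with featureCounts; the annotation, strand setting and treatment of multi-mapping reads were not given in the sources used here. The authors tested with DESeq2, which is an alternative here. Samples were grouped by their labels, and each is a separate mouse. 1 further column of per-sample values, matched by no label, was not used.

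Counts were analysed with edgeR 4.0.16 in R 4.3.3: filterByExpr (minimum count 10), TMM scaling, and the quasi-likelihood test of all 9 libraries with Benjamini-Hochberg adjustment over 16329 genes. Standard errors were obtained by dividing the size of the log2 fold change by the root of the F statistic. CPM are counts over TMM-scaled library sizes, with a prior count of 2 for log2 CPM in overlap and likeness. Length is the longest GENCODE M21 transcript paired with a RefSeq mRNA. Precision follows total counts, 21453880 to 28991631 per library. No 2 libraries of a group were near copies (16 pairs, chi-square per gene at least 12.6). The scripts were tested on simulated data.

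Members and lists were chosen with earlier results of these data known. Genes were named by rule: all members, and per adipocyte list the 3 most changed of those past the threshold, each way. Relatives past the threshold and up to 3 of the highest level in a cell type list were named too. Grem1, Angpt1, Vcam1, Pdgfra, Kitl, Il7, Foxc1, Ebf3, Tnni2, Dspp, Ppara, Ppard, Adipor1, Adipor2, Leprot, Stat3, Socs3, Sh2b1, Plin1, Cfd, Ucp1, Retnla and Pecam1 were named besides, after their values were seen. The same holds for Ramp2, Egfl7, Esam and Robo4. Alternatives changed the scaling, filter, test (DESeq2 1.42.0), threshold, replicate block and the mice included.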

Additional observations from a re-analysis of the deposited data

Results flagged for a closer look

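Among 20 groups of values, 1 for each member and genotype, 3 held a mouse set apart from the others by more than Dixon's 95% limit, which chance passes in about 1 of 20 groups. Lpl was at 177 CPM in WT mouse 2, against 229 to 251 CPM in the other WT mice. Lep was at 0.169 CPM, from 4 counts, in labelled knockout mouse 3 and at 0 in the other 3. Retn was at 0 in WT mouse 5 and at 0.0734 to 0.116 CPM in the other WT mice. The last 2 are differences of a few counts.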

How the results depend on the processing

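The calls of Adipoq, Lepr, Fabp4, Lpl and C1qtnf9 kept their direction and threshold in all 16 planned refits. Leaving out 1 mouse moved the log2 fold change from -1.65 to -1.30 for Adipoq, -0.94 to -0.82 for Lepr, 0.95 to 1.16 for Fabp4, 0.60 to 0.71 for Lpl and 0.73 to 0.997 for C1qtnf9. Sign changed for 3 members without a call: Cidec was at -0.0427 without TMM, -0.0899 with a replicate block and -0.43 to 0.38 when 1 mouse was left out. On leaving out 1 mouse, Pparg was at -0.0218 (without labelled knockout mouse 4) to 0.19 and Car3 at -0.0295 (without labelled knockout mouse 1) to 0.27. Relative to the muscle list, Lpl (-0.16), Fabp4 (0.25) and C1qtnf9 (0.09) no longer passed, and Lpl changed sign. The muscle list sum was itself higher without overlap, which lessens such differences for any gene that was higher. Car3, without a call by itself, was at -0.71 there, which mostly carries the change of the muscle list. These ratios were chosen after seeing the data. Scaling to total counts gave 1309 genes higher against 2289. At an adjusted p under 0.01, 1763 genes were lower and 869 higher, with 5 and 7 of the other adipocyte genes. With a log2 fold change of at least 1, 1 member was lower and 1 higher, 2 in all (Adipoq and Fabp4), with 1069 and 181 of all genes and 2 and 3 of the other adipocyte genes. Leaving out 1 mouse left 6 to 8 other adipocyte genes lower, 6 without WT mouse 2, against 10. Replicate numbers did not pair the mice (correlations of deviations 0.0969, 0.0276, -0.114 and -0.0739), and the replicate block gave 2410 genes lower and 1594 higher, with the same 2 and 3 members. Lep and Retn could be fitted only without the filter, Cidec not with at least 10 counts in every library. Depth limits Lep, Retn, Cidec and Plin1.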
